A study of Mus musculus with 4 samples.

Results

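The nuclei described here were chosen as cortical inhibitory interneurons with transcripts of Adarb2, a group that includes the Vip and the Lamp5 interneurons. They were picked by UMIs, the counts of distinct captured RNA molecules, in the single-nucleus libraries of the injured mouse brain. A GABAergic nucleus had 3000 or more UMIs, at least 4 of Gad1 and Gad2 together, at most 1 of Slc17a7 (an excitatory marker) and at most 4 of Rgs9, Drd2 and Drd1 together (striatal markers). An Adarb2 nucleus also had 5 or more UMIs of Adarb2 and Vip together, and more of these than of Pvalb, Sst, Lhx6 and Sox6. The rule kept 276 of 23489 barcodes, which were 276 of 715 GABAergic nuclei. Of these 276, 61 had 5 or more UMIs of Meis2, and below they are given no cell type name. A further 376 GABAergic nuclei had 5 or more UMIs of Pvalb, Sst, Lhx6 and Sox6 with no fewer of these than of Adarb2 and Vip (Pvalb/Sst nuclei), and 63 met neither rule.

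The study asked how loss of the chemokine Cxcl12 from fibroblasts alters the scarred cortex after photothrombotic (PT) injury, a light-induced occlusion of cortical vessels. Tissue was taken at 21 days post-injury (dpi) from wild-type mice (control) and from Col1a2(creER); Cxcl12(flox) mice (Cxcl12-cKO), in which a tamoxifen-inducible Cre under a collagen promoter is directed to fibroblasts and not to interneurons. Tissue of 1 male and 1 female was pooled per genotype, so each genotype was 1 library and no difference between genotypes had a replicate check. Lesion and perilesional cortex (parenchyma) were dissected apart, tagged, mixed at 75% and 25%, and sorted as DAPI+ nuclei.

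Adarb2 interneurons arise in the caudal ganglionic eminence of the embryo, whereas Pvalb and Sst interneurons arise in the medial ganglionic eminence. Vip cells mostly inhibit other interneurons, Lamp5 cells include the neurogliaform cells that release GABA diffusely in the upper layers, and a further group of basket cells carries Cck and Cnr1. Cxcl12 guides migrating interneurons through its receptors Cxcr4 and Ackr3 during development.

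The region of every nucleus rested on 4 lipid-anchored tag oligonucleotides, and their reads separated the lesional from the parenchymal Adarb2 nuclei used below. The capture sequences were as follows.
Control lesion, CMO309: gttgatctataacag
Control parenchyma, CMO310: gcaggaggtatcaat
Cxcl12-cKO lesion, CMO311: gaatcgtgattcttc
Cxcl12-cKO parenchyma, CMO312: acatggtcaacgctg
In all 276 Adarb2 nuclei the most counted tag was that of the nucleus's own region. The other tags of the library made up a median of 4.45% and 4.07% of tag UMIs in parenchymal nuclei, and of 1.49% and 1.67% in lesional nuclei, of both libraries (control-labelled first).

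The parenchyma held 103 Adarb2 nuclei in the control-labelled library, with a median of 11528 UMIs (1257822 in all), and 122 in the cKO-labelled library, with a median of 13776 UMIs (1833548 in all). The lesion held 33 and 18, with medians of 11497 and 7535 UMIs and totals of 397061 and 188352. No barcode of an Adarb2 nucleus occurred in more than 1 matrix, although the libraries shared up to 22 barcodes between a pair of matrices. Nuclei with UMIs of both Xist and Y-linked genes, which hold RNA of both mice, were 5.83% and 6.06% of parenchymal and lesional Adarb2 nuclei labelled control and 19.7% and 22.2% of cKO-labelled ones. The targeted gene went against its label. Cxcl12 (ENSMUSG00000061353) was at 97.0 counts per 1000000 summed UMIs (CPM, 92.4 to 102) in lesional barcodes with 5 or more fibroblast marker UMIs of the control-labelled library and at 213 CPM (206 to 220.3) in cKO-labelled ones. Which exons were floxed is not stated in the sources read, so the 3′ counts are no check of the deletion, and every genotype below is only that of the label. All intervals are 95% intervals and cover counting error only.

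Adarb2 nuclei made up a similar part of the GABAergic nuclei in all 4 matrices. The share was 37.2% (103 of 277; 31.5 to 43.2) in the parenchyma and 38.8% (33 of 85; 28.4 to 50.0) in the lesion labelled control. It was 39.4% (122 of 310; 33.9 to 45.0) in the parenchyma and 41.9% (18 of 43; 27.0 to 57.9) in the lesion labelled Cxcl12-cKO. Each of these exact binomial intervals contained the other 3 shares, so no difference was detectable at this number of nuclei. After thinning to 3000 UMIs per nucleus, which left 57, 14, 62 and 12 GABAergic nuclei in the same order, the shares were 59.6%, 57.1%, 58.1% and 58.3%. The Adarb2 nuclei were 3.32% and 4.07% of all parenchymal barcodes with 3000 or more UMIs and 0.813% and 0.454% of lesional ones.

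**Figure D1:**
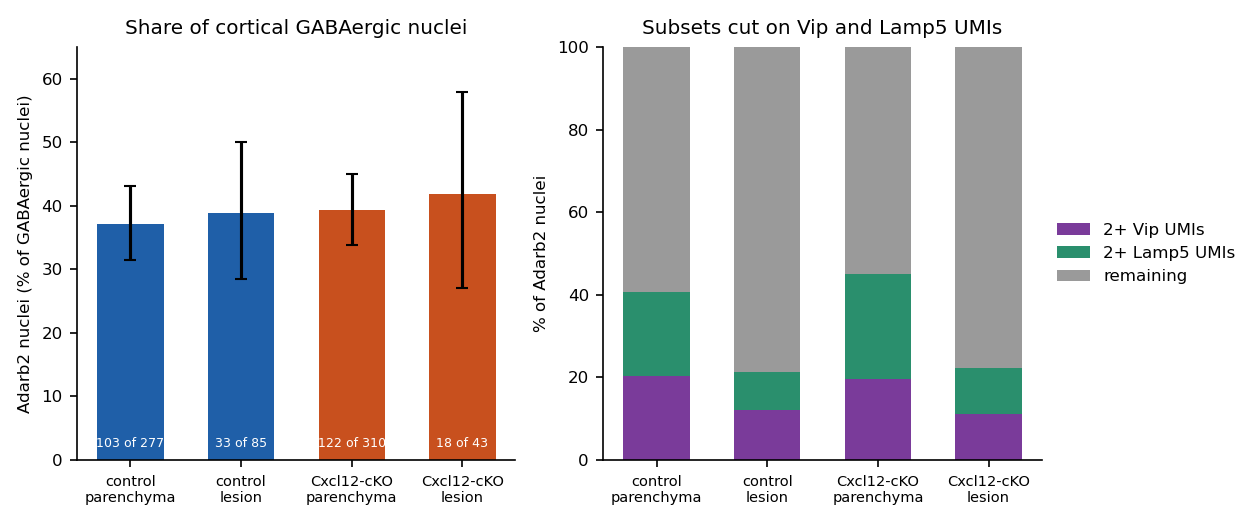
Adarb2 nuclei as a share of cortical GABAergic nuclei in each matrix (left; bars are percent, lines are exact 95% binomial intervals, numbers in the bars are nuclei) and the division of Adarb2 nuclei by Vip and Lamp5 UMIs (right; percent of Adarb2 nuclei). The 4 shares lie between 37.2% and 41.9% with overlapping intervals, and the remaining nuclei are the largest group in each matrix.

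The values that chose the nuclei were Adarb2 and Vip, and they are given as a description. Adarb2 (ENSMUSG00000052551), an RNA-editing enzyme family member without known editing activity, carried nearly all of the choice. Adarb2 and Vip together had a median of 109 UMIs per nucleus (5 to 1304), and 221 of 276 nuclei had no Vip UMI. Pvalb, Sst, Lhx6 and Sox6, which mark the other interneuron class, were at 0 in 221 of 276 nuclei. At the lower edge, 14 nuclei had 5 to 9 UMIs of Adarb2 and Vip, while 15 GABAergic nuclei with 1 to 4 such UMIs, also above their Pvalb, Sst, Lhx6 and Sox6 sum, fell outside.

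Adarb2 also occurred as low counts in cells that were not chosen for it. A UMI of Adarb2 was found in 18.6% and 30.5% of parenchymal excitatory nuclei (1164 and 910 nuclei, whose median depth was 23494 and 26312 UMIs) and in 11.0% and 10.4% of parenchymal Pvalb/Sst nuclei. Vip (ENSMUSG00000019772) was more restricted, in 0.515% and 0.989% of excitatory nuclei and in 0 of 145 and 0 of 164 Pvalb/Sst nuclei. Lamp5 (ENSMUSG00000027270), a membrane protein of synaptic vesicles, was in 39.3% and 39.2% of excitatory nuclei, which make it themselves, but in 0.690% and 3.66% of Pvalb/Sst nuclei.

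Vip and Lamp5 divided the Adarb2 nuclei into groups that did not overlap. With a minimum of 2 UMIs, 51 were Vip nuclei (median 10 Vip UMIs, up to 60), 57 were Lamp5 nuclei (median 3 Lamp5 UMIs, up to 10) and 168 remained, and no nucleus had 2 or more UMIs of both. The Vip side of the division was sharp, with 1 nucleus at exactly 2 Vip UMIs. The Lamp5 side was not, since 18 nuclei had exactly 2 Lamp5 UMIs and 34 had 1, so some of the remaining nuclei lay just under it. In the parenchyma labelled control there were 21 Vip nuclei (20.4%, 13.1 to 29.5), 21 Lamp5 nuclei (20.4%) and 61 remaining nuclei (59.2%). In the cKO-labelled one there were 24 Vip nuclei (19.7%, 13.03 to 27.8), 31 Lamp5 nuclei (25.4%, 18.0 to 34.1) and 67 remaining nuclei (54.9%). These shares did not differ between the libraries beyond counting error. After thinning to 3000 UMIs the Vip shares were 19.4% and 12.3% and the Lamp5 shares 4.85% and 4.10%, so the number of Lamp5 nuclei depended on depth. In the lesion, Vip nuclei numbered 4 of 33 and 2 of 18 and Lamp5 nuclei 3 of 33 and 2 of 18.

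The label was checked against further markers. Of Vip type markers, 15 of 45 parenchymal Vip nuclei had a UMI of Calb2 (a calcium-binding protein), 14 of Crh, 12 of Htr3a (the serotonin-gated channel subunit), 16 of Cxcl14, 5 of Chat and 43 of Igf1. In the 52 parenchymal Lamp5 nuclei these genes had a UMI in 0, 0, 2, 5, 0 and 45 nuclei, so Igf1 was nearly as frequent there. Of Lamp5 type markers, 37 of 52 Lamp5 nuclei had a UMI of Reln (a secreted matrix protein), 25 of Ndnf, 31 of Npy and 47 of Kit. In the 45 Vip nuclei these had a UMI in 11, 0, 4 and 30 nuclei, so Kit was frequent in both groups. Pax6 and Chst9, of the same list, had a UMI in only 3 and 2 of 52 Lamp5 nuclei. Sncg itself was found in 3 of 128 remaining nuclei, while its companion markers were more frequent, as given next. Igf1, Kit, Pax6 and Chst9 apart, each of these markers was found in a larger share of its own group.

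The remaining nuclei contained a group for which the data went against the label. When the nuclei were plotted by Adarb2 and Meis2 UMIs, 61 of 276 (22.1%, 17.3 to 27.5) had 5 or more UMIs of Meis2 (ENSMUSG00000027210), a homeodomain transcription factor used by olfactory bulb and striatal lineages among others. The other Adarb2 nuclei had almost none, with 0 Meis2 UMIs in 192, 1 in 19 and 2 to 4 in 4. This division was made after the values were seen, so it is a description with no test, and the nuclei are called Meis2 nuclei by that gene alone. They numbered 23 of 103 (22.3%) and 25 of 122 (20.5%) in the parenchyma and 6 of 33 (18.2%) and 7 of 18 (38.9%, 17.3 to 64.3) in the lesion of both libraries (control-labelled first). Among Pvalb/Sst nuclei, 5 of 376 (1.33%) passed the same Meis2 minimum. Of the 61, 59 were in the remaining nuclei, 2 in the Lamp5 nuclei and 0 in the Vip nuclei, and 6 held UMIs of both sexes.

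Meis2 nuclei had fewer Adarb2 UMIs than the other Adarb2 nuclei. Their median Adarb2 count was 27 UMIs (5 to 185), against 134 in the other Adarb2 nuclei, at median depths of 9354 and 12693 UMIs. In the parenchyma, Adarb2 was at 2245 and 2957 CPM in the 48 Meis2 nuclei of both libraries (control-labelled first) and at 17222 and 15517 CPM in the 82 other remaining nuclei. Adarb2 helped to choose the nuclei, so these levels are a description. The lower Adarb2 level of Meis2 nuclei was thus present in each library.

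Other transcription factors went with Meis2. Foxp2, a forkhead factor, was at 1166 and 1601 CPM in Meis2 nuclei (28 of 48 nuclei with a UMI) and at 47.7 and 73.5 CPM in the other remaining nuclei (23 of 82). Tshz1, a zinc finger factor, was at 539.6 and 224 CPM (31 of 48) against 63.6 and 23.1 CPM (26 of 82). Meis1, the paralogue of Meis2, was at 222 and 121 CPM against 7.95 and 32.7 CPM. The metallocarboxypeptidase gene Cpa6 was at 516 and 422 CPM against 1.99 and 5.45 CPM, and the sulfotransferase gene Chst9 at 429 and 214 CPM against 7.95 and 2.72 CPM. Both libraries had these genes higher in the Meis2 nuclei.

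Prox1, Nr2f2, Npas1 and several further genes of the other remaining nuclei were low in Meis2 nuclei. Prox1, the homeobox factor of that lineage, had a UMI in 2 of 48 Meis2 nuclei (0 and 15.98 CPM) and in 42 of 82 other remaining nuclei (67.6 and 92.6 CPM). Nr2f2 had one in 1 of 48 and in 26 of 82, and Npas1 in 3 of 48 and in 34 of 82. Zfp536, a zinc finger repressor, had one in 8 of 48 (53.0 and 95.9 CPM) and in 80 of 82 (1095 and 1014 CPM). Zfp536 was not particular to Adarb2 nuclei, with a UMI in 269 of 309 parenchymal Pvalb/Sst nuclei. Cnr1, the cannabinoid receptor, had one in 8 of 48 and in 57 of 82, and Kit, a receptor tyrosine kinase, in 1 of 48 and in 44 of 82. Frem1, Megf10, Ndnf and Npy were at 0 UMIs in all 48. Not every marker was low, since Sv2c, a synaptic vesicle protein, had a UMI in 24 of 48 and Synpr, another vesicle protein, in 32 of 48.

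Of interneuron genes outside the rule, Erbb4 and Dlx6os1 were at lower levels in Meis2 nuclei than in the other remaining nuclei. Slc32a1, the vesicular GABA transporter, was not lower in both libraries, at 48.2 and 19.2 against 43.7 and 28.6 CPM. It had a UMI in 13 of 48 and in 31 of 82 nuclei. Erbb4, the neuregulin receptor of interneurons, was at 4298 and 3119.8 CPM (35 of 48 nuclei with a UMI) against 7059 and 5875 CPM (78 of 82). Dlx6os1, a long non-coding RNA of the Dlx locus, was at 983 and 556 CPM (45 of 48) against 2807 and 1865 CPM (81 of 82). Of striatal projection neuron genes outside the rule, Ppp1r1b had a UMI in 3 of 48 Meis2 nuclei and Adora2a in 0 of 48, while the phosphodiesterase gene Pde10a and the forkhead gene Foxp1 had one in 40 of 48 and 40 of 48. Pde10a and Foxp1 were also found in 80 of 82 and 79 of 82 other remaining nuclei, at 901 and 850.3 CPM against 872 and 882 CPM and at 419 and 361 CPM against 264 and 323 CPM. Rgs9, which the rule limits, had a UMI in 18 of 48 Meis2 nuclei and in 9 of 82 other remaining nuclei. No cell type name is given to the Meis2 nuclei.

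**Figure D2:**
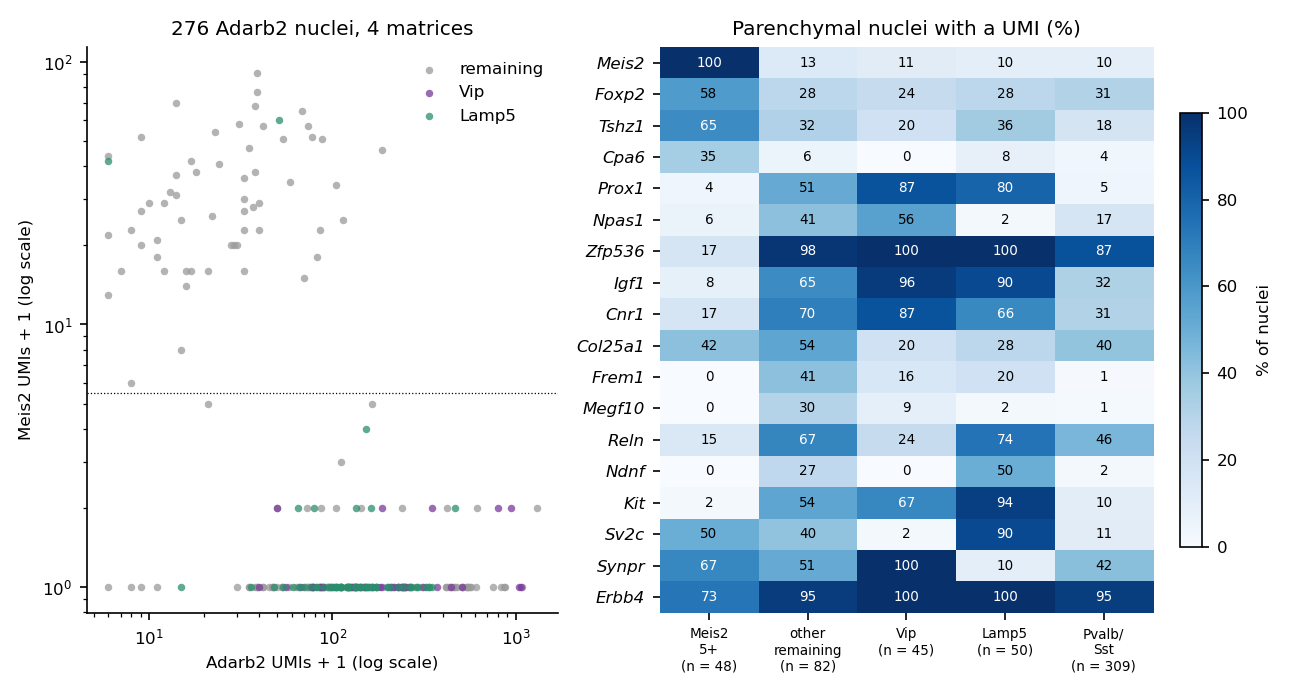
Adarb2 and Meis2 UMIs of all 276 Adarb2 nuclei (left; both axes are UMIs plus 1 on log scales, colours are the Vip, Lamp5 and remaining groups, the dotted line marks 5 or more Meis2 UMIs) and the percent of parenchymal nuclei with a UMI of each gene (right). The 61 nuclei above the line are separated from nuclei with 0 to 4 Meis2 UMIs, and Prox1 and Zfp536 were found in 2 of 48 and 8 of 48 of them in the parenchyma.

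The 82 other remaining nuclei of the parenchyma carried genes of the Cck and Cnr1 basket group and of the Lamp5 group. Cnr1 was at 701 and 674 CPM with a UMI in 57 of 82 nuclei, and Col25a1, a transmembrane collagen, was at 1323 and 1199 CPM in 44 of 82. Frem1, an extracellular matrix protein, was at 429 and 317 CPM in 34 of 82, and Megf10, an engulfment receptor, was in 25 of 82. Reln was in 55 of 82, Ndnf in 22 of 82 and Cck in 25 of 82. Cnr1 and Cck did not set the 82 nuclei apart from Vip nuclei, where they were in 39 of 45 and 12 of 45. Col25a1, Frem1 and Megf10 were less frequent in Vip nuclei, in 9, 7 and 4 of 45. The 82 nuclei were thus mixed, and Lamp5 had 1 UMI in 22 of 82 of them by the way they were cut.

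The Adarb2 nuclei were then compared with Pvalb/Sst nuclei of the same tissue, to describe what separated the interneuron classes beyond the genes that chose them. For each library, UMIs were added up over the parenchymal nuclei of either class (103 and 122 Adarb2 nuclei, 145 and 164 Pvalb/Sst nuclei) and tested with edgeR's quasi-likelihood test with the library as a block. A gene was called at an adjusted p under 0.05 and an absolute log2 fold change of 1 or more. Of 12004 genes tested, 727 were called higher in Adarb2 nuclei (6.06%) and 523 lower (4.36%), and the median log2 fold change was 0.01. The p-values rest on 2 libraries that differ in genotype, with a spread estimated across genes, and do not measure the spread between mice. A gene that goes with Adarb2 or with Pvalb and Sst in single nuclei had its direction in part set by the choice of nuclei. DESeq2 called 378 higher and 253 lower. Calls of Col25a1, Crh, Dlx2, Gabrd, Gabrg1, Kcnq3, Nrgn, Reln and Sstr2 were lost in at least 1 further alternative. In all values below, the first of a pair is the control-labelled library and the second the cKO-labelled library.

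The genes highest in Adarb2 nuclei included Frem1, Ndnf and Cacna2d1. Frem1 was at 213 and 149 CPM in Adarb2 nuclei, against 0.364 and 0.626 CPM in Pvalb/Sst nuclei (log2 fold change 8.30, SE 0.274, adjusted p = 6.13e-25 by edgeR). Ndnf, a secreted neurotrophic factor, was at 77.9 and 112 CPM in Adarb2 nuclei, against 1.46 and 0.939 CPM in Pvalb/Sst nuclei (log2 fold change 6.27). Cacna2d1, an auxiliary subunit of voltage-gated calcium channels, was at 1025 and 869 CPM in Adarb2 nuclei, against 21.8 and 37.6 CPM in Pvalb/Sst nuclei (log2 fold change 4.96) and had a UMI in 94 of 103 and 114 of 122 Adarb2 nuclei. These 3 genes were chosen by their fold in the same sums, so the distance between the classes is a description only. Cxcl14, a chemokine gene, was at 23.9 and 30.5 against 0.364 and 0.313 CPM, and Lamp5 at 60.4 and 72.5 against 0.364 and 1.88 CPM. Frmd7, a cytoskeletal adaptor, was at 28.6 and 11.5 CPM in Adarb2 nuclei and at 0 UMIs in Pvalb/Sst nuclei, at least 36.5-fold higher when 3 UMIs are taken as the floor over both libraries. Nr2e1, Atp6ap1l, Tnfaip8l3, Col14a1, Chst9 and Slc17a8 completed the 12 highest by the naming rule, with log2 fold changes of 4.94 to 6.51. Chst9 was highest in the Meis2 nuclei, as given above, and the vesicular glutamate transporter gene Slc17a8 was found in 5 of 103 and 6 of 122 Adarb2 nuclei.

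The genes lowest in Adarb2 nuclei included Satb1, Crhbp and Il1rapl2. Satb1, the chromatin organiser needed for Sst cell maturation, was at 19.1 and 14.7 CPM in Adarb2 nuclei, against 288 and 310.2 CPM in Pvalb/Sst nuclei (log2 fold change -4.19, SE 0.166, adjusted p = 1.84e-22 by edgeR). Crhbp, which binds the peptide Crh, was at 0.795 and 0.545 CPM in Adarb2 nuclei, against 40.8 and 43.5 CPM in Pvalb/Sst nuclei (log2 fold change -5.93). Il1rapl2, a synaptic adhesion receptor, was at 78.7 and 205 CPM in Adarb2 nuclei, against 1639.9 and 1716 CPM in Pvalb/Sst nuclei (log2 fold change -3.63). In these too the libraries of the classes did not overlap, and these too were chosen by their fold. Mypn, Moxd1, Nek7, Tmem44, Rbp4, Lypd6, Tmem132cos, Sox5os4 and Npnt made up the rest of the 12 lowest, with log2 fold changes of -6.24 to -3.65.

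Transcription factors of the caudal ganglionic eminence were called higher in 6 of 11 tested genes and lower in none (median log2 fold change 1.59). Over all genes, 6.06% were called higher and 4.36% lower. Prox1, the lineage factor, was at 120.0 and 129.8 CPM in Adarb2 nuclei, against 4.73 and 7.82 CPM in Pvalb/Sst nuclei (log2 fold change 4.27, SE 0.195, adjusted p = 1.58e-20 by edgeR). The nuclear factor I genes Nfib and Nfix were at 1017 and 753 against 83.4 and 81.1 CPM and 122 and 113 against 6.55 and 10.6 CPM. The nuclear receptors Nr2f1 and Nr2f2 and the factor Npas1 were the other 3 called, Npas1 at 82.7 and 61.6 against 24.0 and 18.2 CPM. Of medial ganglionic eminence markers outside the rule, 3 of 6 were called lower (Satb1, Cort and Kcnc2) and none higher (median -1.70).

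The marker lists of the Adarb2 types were higher almost throughout, beside 6.06% of all genes called higher and 4.36% lower. Since the nuclei were chosen by partner genes, these counts are descriptions. Vip type markers were called higher in 10 of 11 tested genes, and Mybpc1, a myosin-binding protein, was called lower at 5.57 and 5.45 against 52.1 and 32.9 CPM. The median log2 fold change was 4.85, or 4.26 with the genes at 0 in Pvalb/Sst nuclei set to their bound. Those were Htr3a, at 16.7 and 8.18 CPM and at least 23.1-fold higher, and Chat, the acetylcholine-synthesising enzyme, at 5.57 and 12.5 CPM in 8 nuclei and at least 19.2-fold higher. Lamp5 type markers were called higher in 11 of 12 (median 3.26), among them Kit at 293 and 248 against 24.0 and 26.9 CPM and Sv2c at 217 and 206 against 6.55 and 15.96 CPM. The 11 include Pax6 and Chst9, which had a UMI in 3 and 2 of 52 Lamp5 nuclei but in 22 and 17 of 128 remaining nuclei. Sncg type markers were called higher in 6 of 6 (median 3.83), among them Cnr1 at 382 and 415 against 36.8 and 46.9 CPM.

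Signalling genes were split between the classes, beside 6.06% of all genes called higher and 4.36% lower. Of 9 neuropeptide genes tested, 5 were called higher (Cck, Crh, Penk, Tac2 and Pnoc) and 2 lower (Cort and Pdyn). Penk, the enkephalin precursor, was at 31.8 and 18.5 against 2.18 and 2.82 CPM, and Cck, the cholecystokinin precursor, at 32.6 and 63.8 against 4.01 and 9.70 CPM. Npy was at 112 and 57.3 against 40.8 and 54.8 CPM and missed the call (log2 fold change 0.73). Of 11 peptide receptors, 7 were called higher (Vipr2, Npy1r, Npy2r, Npy5r, Crhr1, Sstr2 and Oprm1) and Oprd1 was called lower. Npy1r was at 35.0 and 36.5 against 3.64 and 2.19 CPM, while the delta opioid receptor gene Oprd1 went the other way, at 11.9 and 11.999 against 97.9 and 92.6 CPM. Of 13 serotonin and acetylcholine receptors, 4 were called higher (Htr3a, Chrna4, Chrna5 and Chrna7) and none lower, with the nicotinic alpha7 subunit gene Chrna7 at 336 and 238 against 39.7 and 35.4 CPM.

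Ion channel and release genes were called in both directions, beside 6.06% of all genes called higher and 4.36% lower. The potassium channels were above these shares in both directions. Voltage-gated potassium channels had 5 of 18 called higher (Kcna4, Kcnb2, Kcnd3, Kcnq5 and Kcnt2) and 4 lower, Kcna1, Kcnc2 and Kcnq3 among them. Kcnq5, an M-current subunit, was at 2529 and 2492 against 514 and 507 CPM (log2 fold change 2.28). Kcnc2, a fast-spiking Kv3 subunit, was at 607 and 579.8 against 3200.0 and 3138 CPM (log2 fold change -2.44). Of 19 presynaptic release genes, Cplx2 was called higher and Cplx1, Syt2 and Vamp1 lower. The complexin pair was thus exchanged, with Cplx2 at 72.3 and 72.0 against 20.4 and 20.7 CPM and Cplx1 at 45.3 and 45.8 against 99.0 and 93.0 CPM. Syt2, a fast calcium sensor, was at 5.57 and 13.1 against 102 and 69.5 CPM (log2 fold change -3.06).

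Most genes of the receptor and adhesion lists were not called, beside 6.06% of all genes called higher and 4.36% lower. GABA-A subunits called higher and glutamate receptors called lower were above these shares, and adhesion genes were nearer to them. GABA-A receptor subunits had 3 of 12 called higher (Gabra2, Gabra5 and Gabrg1) and Gabrd called lower, with Gabra5 at 93.0 and 57.8 against 23.7 and 14.4 CPM. Ionotropic glutamate receptors had Grik4 called higher of 14 and 4 called lower (Gria1, Gria3, Grin3a and Grik3), with Gria3 at 437 and 449 against 1078 and 1059 CPM. Of 25 synaptic adhesion genes, 1 was called higher and Il1rapl2 and Cntnap4 lower, with Cntnap4 at 257 and 244 against 713 and 639.7 CPM. Of 9 immediate early genes, Nr4a1 and Nr4a3 were called higher, and none of the 8 interferon response genes or 5 neuronal injury genes that could be tested was called by edgeR or by DESeq2 (1 and 2 of them had an unadjusted p under 0.05 by edgeR).

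Markers of other cells differed little between the classes, with exceptions. Slc1a2, the astrocytic glutamate transporter, was called higher in Adarb2 nuclei at 98.6 and 141 against 10.9 and 23.5 CPM, and Nrgn, an excitatory neuron gene, at 16.7 and 15.3 against 5.83 and 8.14 CPM. The 6 astrocyte markers together were at 124 and 168 CPM in Adarb2 nuclei and at 20.03 and 47.6 CPM in Pvalb/Sst nuclei. Their part in the results above was not tested.

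**Figure D3:**
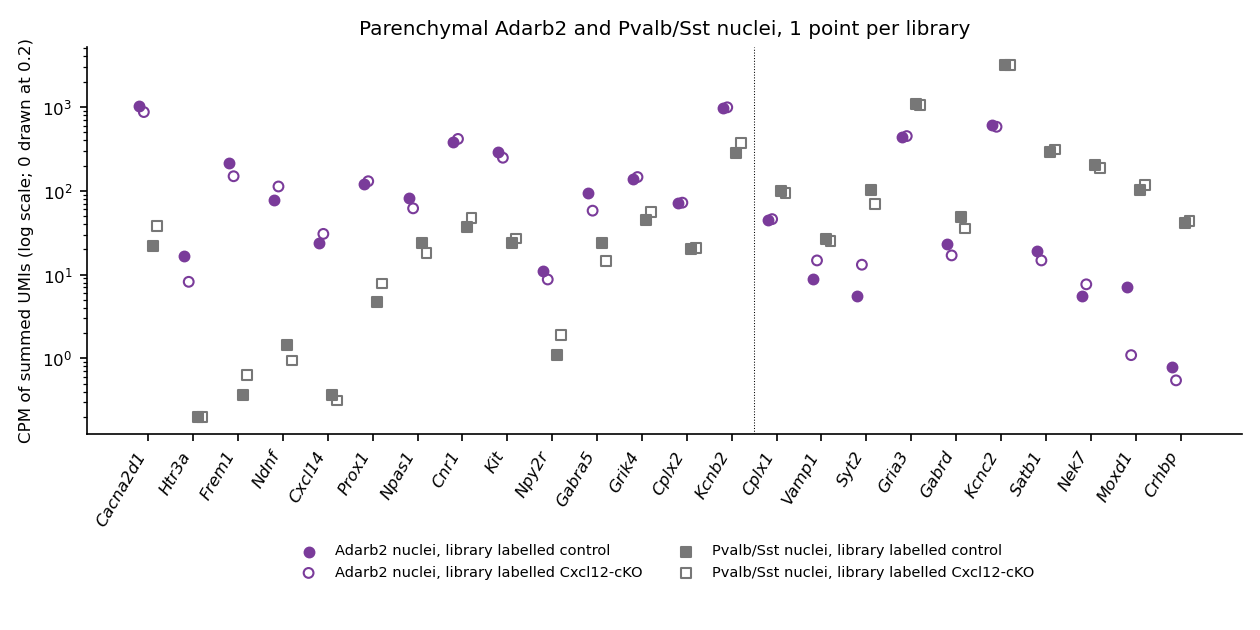
Levels of selected genes in parenchymal Adarb2 nuclei (circles) and Pvalb/Sst nuclei (squares), 1 point per library, filled for the control-labelled library and open for Cxcl12-cKO, as CPM of summed UMIs on a log axis with 0 drawn at 0.2. Genes left of the dotted line were higher and those right of it lower in Adarb2 nuclei. Examples are Prox1 at 120.0 and 129.8 against 4.73 and 7.82 CPM and Satb1 at 19.1 and 14.7 against 288 and 310.2 CPM. The genes were chosen from those called, so the distance between the points of the classes is a description only.

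Vip and Lamp5 nuclei were compared in the same way, to describe how Adarb2 nuclei varied among themselves. The sums held 21 and 24 Vip nuclei and 21 and 31 Lamp5 nuclei of the parenchyma. Of 4997 genes tested, 340 were called higher in Vip nuclei (6.8%) and 296 lower (5.92%). Since the groups were cut on Vip and Lamp5, those 2 genes were left out of the test, and genes that go with them had their direction in part set by it. DESeq2 called 132 higher and 91 lower, and the calls of Cxcl14, Gabra3, Gabrg3, Kcnd2, Nr4a1 and Oprm1 were lost in at least 1 further alternative.

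The genes highest in Vip nuclei included Synpr, Elfn1 and Crh. Synpr, a synaptic vesicle protein, was at 2322 and 2058 CPM in Vip nuclei, against 19.8 and 22.8 CPM in Lamp5 nuclei (log2 fold change 6.76, SE 0.349, adjusted p = 1.14e-18 by edgeR), with a UMI in all 45 Vip nuclei. Elfn1, a postsynaptic organiser that recruits metabotropic glutamate receptors, was at 150.1 and 176 CPM in Vip nuclei and at 0 UMIs in Lamp5 nuclei, at least 43.0-fold higher. Crh, the corticotropin-releasing hormone, was at 51.3 and 56.5 CPM and at 0 in Lamp5 nuclei, at least 14.2-fold higher. Npas1 was at 122 and 113 against 0 and 2.07 CPM, so the higher level of this lineage factor in Adarb2 nuclei over Pvalb/Sst nuclei came with almost no UMIs in the Lamp5 nuclei. Plpp4, Cbln2, Npy2r, L3mbtl4, Scn7a, Sema5b, Brinp3 and Dpf3 were the other 8 of the 12 highest, of which Plpp4, Cbln2, Npy2r, L3mbtl4 and Scn7a were at 0 UMIs in Lamp5 nuclei.

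The genes lowest in Vip relative to Lamp5 nuclei included Ndnf, Sv2c and Nxph1. Ndnf was at 135 and 332 CPM in Lamp5 nuclei and at 0 UMIs in Vip nuclei, at least 48.8-fold lower there. Sv2c was at 0 and 3.14 against 433 and 405 CPM (Vip nuclei first), and Reln at 67.1 and 147 against 862 and 1485 CPM (log2 fold change -3.34). Nxph1, a secreted ligand of neurexins, was at 15.8 and 185 against 3583 and 3339.9 CPM. For Nxph1 the Vip nuclei of the libraries were apart, and both were below the Lamp5 nuclei. Cpa6, Iqgap2, Atp6ap1l, Scube1 and Slc16a12 were at 0 UMIs in Vip nuclei, and Hapln1, Tox, Crispld1 and Adamtsl1 completed the 12 lowest. Cpa6 was found in 6 of 52 Lamp5 nuclei, of which 2 were Meis2 nuclei.

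Of 18 listed receptors for serotonin and acetylcholine, 11 were not tested. Over all genes, 6.8% were called higher and 5.92% lower. Of the 7 receptors tested, 6 differed between the groups. Of these, 4 were called higher in Vip nuclei (Htr2c, Htr4, Htr7 and Chrm3) and 2 lower (Htr1f and Htr2a). Htr2c was at 249 and 499 CPM in Vip nuclei, against 19.8 and 41.5 CPM in Lamp5 nuclei (log2 fold change 3.72, SE 0.305, adjusted p = 7.88e-13 by edgeR), and Chrm3, the muscarinic M3 receptor, at 1204 and 1387 against 244 and 274 CPM (log2 fold change 2.45). Htr2a went the other way at 0 and 9.41 against 116 and 64.3 CPM (log2 fold change -3.81). The serotonin receptors of the Gq-coupled pair Htr2a and Htr2c were thus on opposite sides of the division.

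Synaptic adhesion genes and GABA-A receptor subunits were called in a larger part than all genes, of which 6.8% were called higher and 5.92% lower. Synaptic adhesion genes were called higher in Vip nuclei in 6 of 19 tested and lower in none, with Nrxn3 at 16703 and 14088 against 2946 and 4319 CPM and Dscam at 1481 and 1192 against 72.7 and 158 CPM. GABA-A receptor subunits were called lower in 4 of 10 (Gabra4, Gabra5, Gabrb2 and Gabrg3) and higher in Gabra3 alone. Glutamate receptors and release genes were called at shares nearer to those of all genes. The NMDA receptor subunit gene Grin2a was at 762 and 486 against 4138 and 2902 CPM (log2 fold change -2.37). The other called glutamate receptors were Grik4, higher, and Gria3, lower, of 14 tested. Potassium channels had Kcnb2, Kcnc2 and Kcnt2 called higher and Kcnd2 and Kcnh7 lower of 18, and of 15 release genes Cplx2 was higher and Rims1 lower.

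Peptide genes were divided between the groups, beside 6.8% of all genes called higher and 5.92% lower. Cck, Crh, Penk and Tac2 were called higher in Vip nuclei and Npy lower, of 6 tested, with Npy at 67.1 and 18.8 against 320.4 and 102 CPM (log2 fold change -2.17). Vip type markers outside the rule were called higher in 5 of 5 tested, and 6 were not tested. Lamp5 type markers other than Lamp5 were called lower in 6 of 6 tested, and 5 were not tested. Their median log2 fold changes were 3.40 and -3.35. The groups were cut on Vip and Lamp5, and a gene absent from 1 group could be tested only through the other. These counts are thus descriptions. Of caudal ganglionic eminence factors, Npas1 and Npas3 were called higher and Nfib and Tox2 lower of 9, while Prox1 was at 217 and 314 against 205 and 135 CPM and missed the call (log2 fold change 0.82).

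Parenchymal Adarb2 nuclei of the cKO-labelled library were next set against those labelled control, to see whether the genotypes differed in these cells. Few genes differed by a large fold. Of 7405 genes with 50 or more UMIs over both libraries, 59 had a log2 ratio of 1 or more (0.797%) and 41 of -1 or less (0.554%), and the median was -0.02. With 1 library per genotype there is no test, and 3799 genes (51.3%) had the same sign in the nuclei of the female and of the male mice. Cxcr4 and Ackr3, the receptors of Cxcl12, had 0 and 0 UMIs and 3 and 1 UMIs, and Cxcl12 had 1 and 4. A count of 0 still allows up to 3 UMIs, so no level or difference of these genes was detectable in the Adarb2 nuclei.

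Genes higher in the cKO-labelled library included Cacna2d2, Il1rapl2, Rasgef1b and Bnc2. Cacna2d2, an auxiliary calcium channel subunit, went from 19.9 to 71.4 CPM (25 and 131 UMIs; log2 ratio 1.82, 1.22 to 2.53), and was found in 12 of 103 and 32 of 122 nuclei. Il1rapl2 went from 78.7 to 205 CPM (99 and 376 UMIs; log2 ratio 1.38, 1.06 to 1.72), with 105 of its 376 UMIs in 1 nucleus. Rasgef1b, a Ras exchange factor, went from 38.2 to 105 CPM (48 and 193 UMIs; log2 ratio 1.45, 1.00 to 1.95). Without the nucleus with most UMIs in each library, the 3 log2 ratios were 1.83, 1.39 and 1.64, and in Pvalb/Sst nuclei they were -0.12, 0.07 and 0.02. Bnc2, a zinc finger factor, went from 7.95 to 32.7 CPM (10 and 60 UMIs; log2 ratio 1.98, 1.06 to 3.17), spread over 10 and 36 nuclei, and had a log2 ratio of 1.07 in Pvalb/Sst nuclei. Cpq, Poc1b, Glra3, Zfp521, Zfhx3, Sgpp2 and Insyn2a were the other 7 named, at log2 ratios of 1.37 to 1.96.

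Several genes lower in that library rested on single nuclei. Col14a1, a fibril-associated collagen, went from 142 to 57.8 CPM (179 and 106 UMIs; log2 ratio -1.30, -1.66 to -0.95), in 33 and 28 nuclei. Sox11, a factor of immature and injured neurons, went from 35.0 to 9.82 CPM (44 and 18 UMIs; log2 ratio -1.81, -2.71 to -1.01), in 26 and 17 nuclei. Both kept log2 ratios under -1 without the top nuclei (-1.38 and -1.60). Ntng1, an adhesion protein of axons, went from 239 to 67.6 CPM (301 and 124 UMIs; log2 ratio -1.82, -2.14 to -1.52), but 133 of its 301 UMIs labelled control were in 1 nucleus, and the log2 ratio without the top nuclei was -1.17. For Tmem132c, 36 of 52 UMIs labelled control were in 1 nucleus and the log2 ratio moved from -1.59 to -0.49 (-1.56 to 0.60). Actb moved in the same way, from -1.47 to -0.74. Slc17a8, Hunk, Plch2, Grip1os3, Osbpl7 and Plpp3 were the other 6, at -1.46 to -1.18.

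Over these 22 named genes, 19 stayed past the fold without the top nuclei, 7 were past it in the nuclei of both sexes, and 1 (Bnc2) was past it in the same direction in Pvalb/Sst nuclei. Of the 22, 6 had the opposite sign in Pvalb/Sst nuclei. No difference between the classes was tested.

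**Figure D4:**
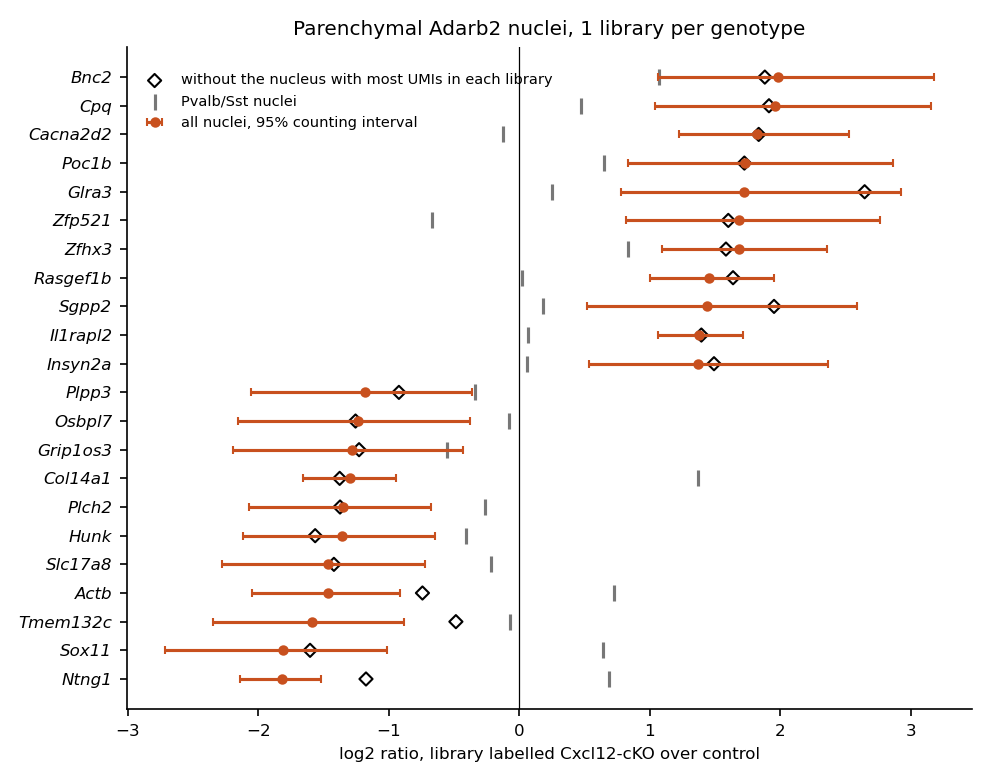
Log2 ratios of the cKO-labelled library over the control-labelled library for the 22 named genes in parenchymal Adarb2 nuclei (filled points, with 95% counting intervals), without the nucleus with most UMIs in each library (diamonds) and in parenchymal Pvalb/Sst nuclei (grey ticks). Tmem132c, Actb and Ntng1 move towards 0 without single nuclei, and 6 of the 22 grey ticks lie on the opposite side of 0.

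Gene lists moved little between the libraries. The median log2 ratio was 0.01 over 24 synaptic adhesion genes, 0.01 over 17 presynaptic release genes, 0.04 over 12 GABA-A receptor subunits and 0.02 over 18 voltage-gated potassium channels. The summed GABA-A subunits went the other way from their median (-0.21, -0.26 to -0.16). Past the fold were Slc17a8 of 6 Sncg type markers, Tacr1 of 4 peptide receptors, Il1rapl2 of the adhesion genes, Sox11 of 3 injury genes and Mbp of the oligodendrocyte list. The 14 neuropeptide genes outside the rule together were at 238 and 219.8 CPM (log2 ratio -0.11, -0.33 to 0.11), and at 486 and 407 CPM (-0.25, -0.41 to -0.10) with Vip and Sst, which the rule used and which were left out of list sums after the values were seen. Within them Npy went from 112 to 57.3 CPM (-0.97, -1.35 to -0.59) and Cck from 32.6 to 63.8 CPM (0.96, 0.44 to 1.52), so the peptide sum hid opposite directions. The Npy log2 ratio was -1.42 in female and -1.99 in male nuclei. It was nearer 0 when all nuclei were counted, since 40 of the 105 Npy UMIs in the cKO-labelled library were in 24 nuclei holding RNA of both sexes (99.4 CPM, against 48.8 CPM in female and 26.2 CPM in male nuclei). The 36 interferon response genes together were at 145 and 153 CPM (0.07, -0.20 to 0.35), with 12 and 11 of them at 0 UMIs, so no difference was detectable.

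Markers of glia had higher counts in the Adarb2 nuclei labelled Cxcl12-cKO. The 6 astrocyte markers went from 124 to 168 CPM in sum (log2 ratio 0.44, 0.16 to 0.72), with 1 and 0 of them at 0 UMIs, and from 20.03 to 47.6 CPM in Pvalb/Sst nuclei. The 8 oligodendrocyte lineage markers went from 26.2 to 51.8 CPM (0.97, 0.40 to 1.60), with 1 at 0 UMIs in each. In female and male nuclei taken apart, the log2 ratios were 0.20 (-0.21 to 0.64) and 0.21 (-0.28 to 0.70) for the astrocyte and 0.81 (-0.02 to 1.77) and -0.41 (-1.75 to 0.81) for the oligodendrocyte markers, with intervals across 0. Fibroblast markers were at 36.6 and 46.9 CPM. The share of nuclei with RNA of both mice was also higher there, as given above, and the part of either in the differences between the libraries was not tested.

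Finally, lesional Adarb2 nuclei were set against parenchymal ones of the same library. The lesional sums held 33 and 18 nuclei and are shallow. Of 4901 genes with 50 or more UMIs in all, 17 had a log2 ratio of 1 or more in both libraries (0.347%) and 149 of -1 or less in both (3.04%), while the medians were 0.03 and 0.06. The count higher in both was 9 without nuclei holding RNA of both sexes and 6 without Meis2 nuclei. The libraries share no nuclei, and no test was made.

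The most abundant gene among those lower in both lesions was Malat1, a nuclear long non-coding RNA. It went from 58918 to 22122 CPM in the control-labelled library and 61122 to 26312 CPM in the cKO-labelled library (log2 ratios -1.41, -1.45 to -1.38, and -1.22, -1.26 to -1.17). In Pvalb/Sst nuclei the log2 ratios were -1.59 and -1.36, so the same direction was seen in both classes. Ube3a, an E3 ubiquitin ligase, went from 710.0 to 181 CPM in the control-labelled library and 736 to 101 CPM in the cKO-labelled library (log2 ratios -1.96, -2.34 to -1.62, and -2.83, -3.60 to -2.22), with -2.00 and -3.11 in Pvalb/Sst nuclei. Malat1 and Ube3a, like the others named here outside the lists, were chosen after their values were seen. Of the 149 genes lower in both, 71 were unnamed gene models, and 124 had intervals below 0 in both libraries.

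Among listed genes, the interneuron genes Vip, Slc32a1 and Frem1 and the adhesion gene Nlgn3 were lower in both lesions. Vip, which helped to choose the nuclei, was at 246 and 184 CPM in the parenchyma and 70.5 and 79.6 CPM in the lesion (log2 ratios -1.78, -2.41 to -1.24, and -1.16, -2.06 to -0.46), in 5 and 2 lesional nuclei. Slc32a1, the vesicular GABA transporter, was at 46.9 and 27.3 CPM in the parenchyma and 10.1 and 10.6 CPM in the lesion (log2 ratios -2.06 and -1.05), and its interval in the cKO-labelled library spanned 0. Frem1 was at 213 and 149 CPM in the parenchyma and 85.6 and 42.5 CPM in the lesion (log2 ratios -1.30, -1.88 to -0.80, and -1.72, -3.04 to -0.81). Vip, Slc32a1 and Frem1 rested on 2 to 9 lesional nuclei with a UMI per library.

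The summed neuropeptide genes were lower in the lesion of both libraries. The 14 genes outside the rule were at 238 CPM in the parenchyma and 90.7 CPM in the lesion of the control-labelled library (log2 ratio -1.37, -1.93 to -0.89) and at 219.8 and 74.3 CPM in the cKO-labelled one (-1.52, -2.45 to -0.80). Npy was at 112 and 57.3 CPM in the parenchyma and 25.2 and 26.5 CPM in the lesion, and Cck at 32.6 and 63.8 CPM in the parenchyma and 15.1 and 10.6 CPM in the lesion. The list's lesional sums held only 36 and 14 UMIs. Vip nuclei were also fewer in the lesional samples. Within the remaining nuclei alone the list's log2 ratios were -0.76 (-1.46 to -0.15) and -2.03 (-3.46 to -1.06). That group also differed in make-up. Meis2 nuclei, without a UMI of Npy or Frem1 in the parenchyma, were 22 of 61 and 24 of 67 remaining nuclei there. In the lesion they were 6 of 26 and 7 of 14. Their part in the ratios of these genes was not tested. Peptide receptors went the same way (-0.84, -1.26 to -0.45, and -0.72, -1.29 to -0.23). The 11 Vip type markers other than Vip had log2 ratios of -0.53 (-0.88 to -0.21) and -0.20 (-0.62 to 0.18), of which the second spanned 0.

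Other lists differed in direction between the libraries or moved little. Lamp5 type markers had log2 ratios of 0.13 (0.01 to 0.25) and -0.63 (-0.85 to -0.42), and Sncg type markers of -0.77 (-0.95 to -0.59) and 0.21 (0.02 to 0.39). Voltage-gated potassium channels were at 0.42 (0.39 to 0.46) and 0.07 (0.02 to 0.12), and caudal ganglionic eminence factors at 0.35 (0.28 to 0.42) and 0.23 (0.13 to 0.33). GABA-A receptor subunits, at 0.14 (0.07 to 0.21) and 0.30 (0.21 to 0.39) in sum, were higher in both lesions, but their median over 10 measured subunits was 0.08 and -0.31. The medians over measured genes also differed in sign from 1 or both of the sums for Lamp5 type markers (-0.44 and -0.98), Sncg type markers (-0.65 and -1.29) and caudal ganglionic eminence factors (0.29 and -0.01). Neuronal injury genes, at 0.15 (-0.26 to 0.54) and -0.23 (-0.87 to 0.30), and interferon response genes, at 0.47 (0.07 to 0.86) and -0.07 (-0.72 to 0.48), did not differ in the same direction beyond counting error in both.

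**Figure D5:**
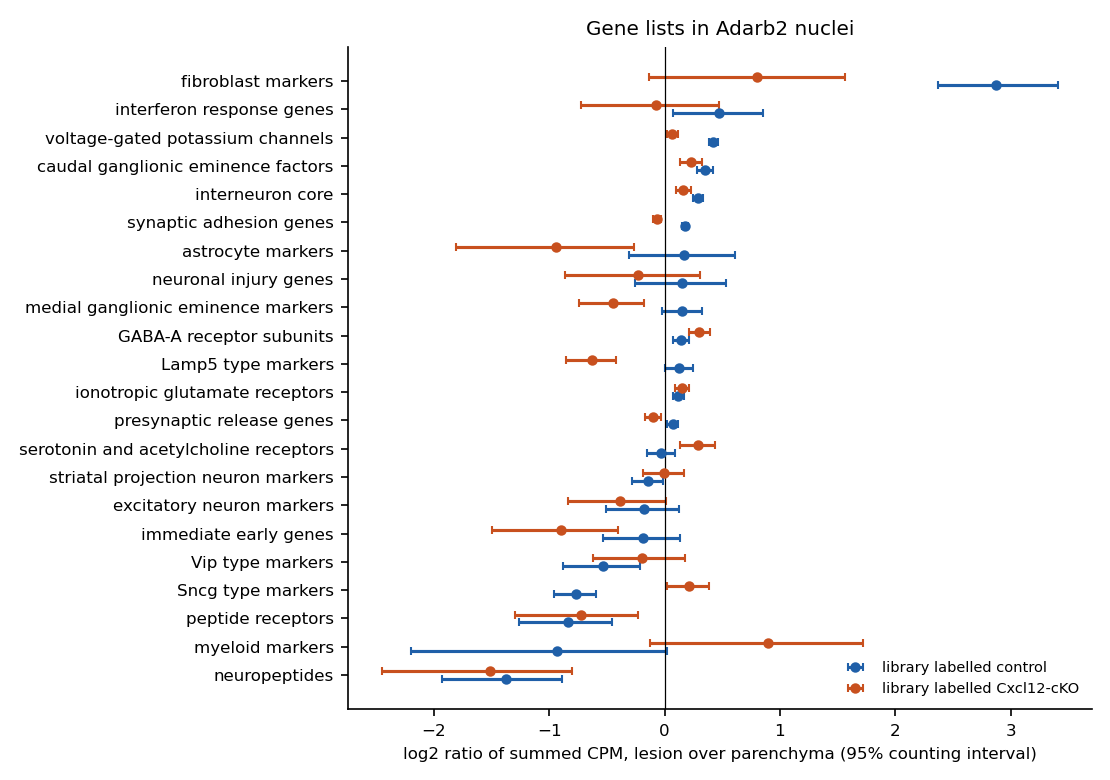
Log2 ratios of the summed CPM of each gene list, without the genes of the rule, in lesional over parenchymal Adarb2 nuclei, for the control-labelled library (blue) and Cxcl12-cKO (orange), with 95% counting intervals. Neuropeptides and peptide receptors lie below 0 with their intervals in both libraries, and the fibroblast markers lie highest in the control-labelled library.

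Of the 17 genes higher in both lesions, 10 were at a higher level in lesional non-GABAergic nuclei than in lesional Adarb2 nuclei of both libraries, 6 at a lower level in both and 1 differed between the libraries. Lrmda, a gene named for melanocyte differentiation, went from 3.98 to 113 CPM in the control-labelled library and 13.6 to 175 CPM in the cKO-labelled library, in 7 of 33 and 4 of 18 lesional nuclei, and was at 802 and 1371 CPM in lesional non-GABAergic nuclei. Abca1, a cholesterol exporter, went from 24.6 to 80.6 CPM in the control-labelled library and 28.9 to 181 CPM in the cKO-labelled library and was at 811 and 1268 CPM in those nuclei. Nfia, a nuclear factor I gene, went from 127 to 307 CPM in the control-labelled library and 131 to 287 CPM in the cKO-labelled library. Ankfn1, Fras1, Peli2, Serinc5, Vav2 and 2700049A03Rik were the 6 with a lower level there. Of these, Ankfn1 had 59.6 to 154 CPM in the control-labelled library and 59.4 to 159 CPM in the cKO-labelled library but only 20.9 and 22.6 CPM in the non-GABAergic nuclei, and it was found in 4 and 4 lesional Adarb2 nuclei.

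Signs of other cells and of RNA quality moved with the region. The 6 fibroblast markers were at 36.6 and 269 CPM in parenchymal and lesional Adarb2 nuclei labelled control (log2 ratio 2.87, 2.37 to 3.41) and at 46.9 and 79.6 CPM in cKO-labelled ones (0.80, -0.13 to 1.57), with 0 or 1 of them at 0 UMIs. The median share of mitochondrial UMIs was 0.0387% and 0.0519% in parenchymal and 0.111% and 0.314% in lesional nuclei. Their part in the differences between lesion and parenchyma was not tested.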

How the data were processed

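Deposited values were whole-number UMI counts per gene and nucleus, which the authors made with Cell Ranger (version 9.0.0, build GRCm39, per the submitters' processing notes) and split by tag into 4 matrices; whether introns were counted was not given in the sources used here. The gate, lists and tests below were chosen with earlier results of these data known. Nuclei had 3000 or more UMIs, no doublet caller was run, and nuclei with UMIs of both sexes were removed as an alternative. UMIs were summed per library and class and tested with edgeR (4.0.16, R 4.3.3; quasi-likelihood, library as block, Benjamini-Hochberg adjustment); the SE of a log2 fold change was its size over the square root of F. Genes of the gate were left out of the tests. Both tests were checked on simulated data. At a true log2 fold change of 1, 24 of 100 changed genes were called against Pvalb/Sst nuclei. For Vip over Lamp5 nuclei 12 of 81 were called. At a true change of 2 these were 100 of 100 and 70 of 96, so a gene not called may still differ. Ratios between libraries used genes with 50 or more UMIs over both libraries, and ratios between regions genes with 50 or more over both regions in each library. To each sum 0.5 was added, and intervals were exact binomial 95% intervals. Named genes were the 12 highest and 12 lowest with a level of 20 CPM or more in either group, leaving out unnamed gene models, and all genes of the lists, of which a few are not reported here and are left out of counts over named genes between libraries. DESeq2 (1.42.0), other gates, filters and scalings were alternatives. Python 3.11.15 with numpy 2.4.6, scipy 1.17.1, pandas 2.3.3 and matplotlib 3.10.9 was used. The reference at hand was another build, so no coordinates are given.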

Additional observations from a re-analysis of the deposited data

Results flagged for a closer look

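Of 25 summed gene lists of parenchymal Adarb2 nuclei, genes of the rule included, 11 had opposite signs in the nuclei of the female and of the male mice when the libraries were compared, and in 3 of these both counting intervals also excluded 0. The difference between the sexes was not tested. For caudal ganglionic eminence factors the log2 ratio of cKO-labelled over control-labelled nuclei was -0.23 in female and 0.14 in male nuclei. For ionotropic glutamate receptors it was -0.12 in female and 0.060 in male nuclei. For voltage-gated potassium channels it was -0.23 in female and 0.39 in male nuclei. Each sex was 1 mouse per library, so sex and mouse cannot be told apart.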

How the results depend on the processing

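Against Pvalb/Sst nuclei, DESeq2 called 378 genes higher and 253 lower, and sums per mouse with a mouse block, an alternative added after seeing the data, called 482 higher and 384 lower of 9010 tested. For Vip over Lamp5 nuclei DESeq2 called 132 and 91, and sums per mouse called 186 and 179 of 2167 tested. Fewer genes were tested per mouse, and otherwise the cause was not tested. Over the other alternatives the counts were 630 to 756 and 446 to 610 against Pvalb/Sst nuclei, and 284 to 392 and 214 to 338 for Vip over Lamp5 nuclei. Ntn1 in male nuclei (-0.082) and Sstr2 in female nuclei (-0.040) reversed sign. Library was the block, and the labels give no replicate numbers that pair mice. Without the block, 681 genes were called higher and 495 lower against Pvalb/Sst nuclei and 317 and 271 for Vip over Lamp5 nuclei. Between the libraries, 8 genes were past the fold upwards and 3 downwards of 2625 with 200 or more UMIs, and 65 downwards with nuclei weighted alike. In the lesion, 9 genes were higher in both libraries without nuclei of both sexes and 6 without Meis2 nuclei, also added after seeing the data. Thinning to 3000 UMIs gave shares of Adarb2 nuclei of 59.6%, 57.1%, 58.1% and 58.3% (parenchyma and lesion of the control-labelled, then of the cKO-labelled library), Lamp5 shares of 4.85% and 4.10% and a cKO-labelled Vip share of 12.3%. A minimum of 3 Lamp5 UMIs gave 10.7% in the control-labelled parenchyma. The sums per library and region held 18 to 122 Adarb2 nuclei, which limits the differences that could be detected.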
